A study of Homo sapiens with 6 samples.

Results

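The genes examined here are 42 chaperones and chaperone regulators of 3 compartments, the endoplasmic reticulum (ER), the cytosol and the mitochondria, chosen by symbol out of 67130 genes in the table. All 42 were found once on the main chromosomes, and all 42 had a mean of at least 1 FPKM (fragments per kilobase of transcript, scaled to the mapped fragments, a level per transcript length) over the 6 samples and so entered the test. They comprise 12 ER chaperones, 4 ER stress regulators and ER-associated degradation (ERAD) genes, 13 cytosolic heat shock proteins and regulators, 7 subunits of the chaperonin TRiC, and 6 mitochondrial chaperones and proteases. A further 115 genes of the same pathways, none of them a member, were listed beside them, and 108 of these were tested.

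RNA-seq was performed in hTERT-RPE1-TOShOFD1 cells, a telomerase-immortalised human retinal pigment epithelial line carrying a lentiviral Tet-On short hairpin RNA against OFD1, a protein of centrioles and centriolar satellites. The control group (n = 3) was kept without doxycycline and the OFD1-depleted group (n = 3) received 200 ng/mL doxycycline, both for 72 hours. The control carries the same hairpin, although its genotype label reads WT, and doxycycline without the hairpin was not analysed here, so that the effects of the drug and of OFD1 depletion cannot be told apart. The labels number the replicates without stating that they came from separate cultures. The paper's legend to its RNA-seq heat map describes the columns as biological replicates, without saying how they were grown. The p-values measure the spread between these samples, and how much of it is technical is not known.

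Chaperones bind unfolded or partly folded proteins and release them in cycles, most of them driven by ATP. The ER set folds secreted and membrane proteins and is induced by the unfolded protein response, whose sensors are ATF6, PERK (EIF2AK3) and IRE1 (ERN1). The cytosolic set is induced by the factor HSF1 when proteins misfold in the cytosol, TRiC folds actin and tubulin among other clients, and the mitochondrial set folds proteins imported from the cytosol. Growing cells with a high rate of protein synthesis depend on all 3 sets.

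OFD1 was lower in every OFD1-depleted sample. Its FPKM was 3.34, 3.62 and 3.44 in the control samples and 0.795, 0.763 and 1.43 in the OFD1-depleted samples. The mean fell from 3.47 ± 0.144 to 0.996 ± 0.375 FPKM (SD, n = 3 each), a difference of -1.75 on the log2 scale (adjusted p = 0.00085 in limma, by Benjamini-Hochberg over all 12025 genes tested). An exact two-sided permutation test gave p = 0.1, the smallest value that 3 samples against 3 allow.

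OFD1-depleted replicate 2 stood apart from the other samples by transcript length. In that library the log2 ratio to the control mean fell by 0.207 per doubling of transcript length, against slopes of -0.021 to 0.014 in the other 5. Its correlation with the other OFD1-depleted samples was 0.97, against 0.984 between those 2 and 0.98 to 0.983 among the controls. The share of FPKM from genes of the mitochondrial genome was also higher in the OFD1-depleted group, 15.6% to 19.3% against 8.66% to 13.8%. Alternatives that take out the length trend, or leave mitochondrially encoded genes out of the total, are among those given below. What caused either difference was not tested. Most member values that moved by over 1.5 times without replicate 2 are given both ways. Some that stayed near 0 are not. Of the pigment epithelium markers, MITF (5.06 to 7.75 FPKM) and OTX2 (1.56 to 2.1 FPKM) were present, while RLBP1, TTR, TYRP1, RPE65 and PMEL stayed below 1 FPKM, as did BEST1 outside OFD1-depleted replicate 2, where it was at 4.33 FPKM. The epithelial keratins KRT8 and KRT18 were at 111 to 218 FPKM.

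A pair of promoter elements is shown here because the results below are ordered by compartment. Sequences came from RefSeq promoters (GRCh38.p14, 250 bases before to 50 after each start), in which 38 of the 42 members had an entry by symbol. The ER stress response element, through which ATF6 acts, was searched as CCAAT, 9 bases of any kind, then CCACG, on both strands. It was found in 27 of 35116 promoters (0.0769%), and 6 of the members carried it. They are listed 5′ to 3′ along the gene, with both conserved blocks in capitals (reading CGTGG and ATTGG where the element lies on the opposite strand).
HSPA5, chr9:125241386-125241414, minus strand: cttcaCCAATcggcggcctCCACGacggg
HSP90B1, chr12:103930211-103930239, plus strand: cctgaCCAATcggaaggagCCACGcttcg
HSP90B1, chr12:103930316-103930344, plus strand: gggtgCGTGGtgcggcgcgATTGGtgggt
CALR, chr19:12938379-12938407, plus strand: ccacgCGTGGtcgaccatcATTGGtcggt
CANX, chr5:179698773-179698801, plus strand: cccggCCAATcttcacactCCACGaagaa
PDIA6, chr2:10812848-10812876, minus strand: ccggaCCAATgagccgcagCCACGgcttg
XBP1, chr22:28800598-28800626, minus strand: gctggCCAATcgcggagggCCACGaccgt

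The heat shock element, the binding motif of HSF1, was searched as 3 blocks of GAA and TTC in turn with 2 bases of any kind between them. It was found in 172 of the promoters (0.49%) and in those of 5 members, all of them cytosolic or mitochondrial.
HSPA8, chr11:123062346-123062374, minus strand: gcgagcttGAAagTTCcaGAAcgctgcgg
HSPA8, chr11:123062171-123062199, minus strand: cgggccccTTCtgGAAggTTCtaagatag
HSP90AA1, chr14:102087112-102087140, minus strand: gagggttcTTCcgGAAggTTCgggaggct
HSP90AB1, chr6:44247770-44247798, plus strand: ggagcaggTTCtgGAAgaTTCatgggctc
HSP90AB1, chr6:44247823-44247851, plus strand: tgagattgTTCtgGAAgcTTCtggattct
DNAJA1, chr9:33025268-33025296, plus strand: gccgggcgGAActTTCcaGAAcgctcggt
HSPD1, chr2:197500060-197500088, minus strand: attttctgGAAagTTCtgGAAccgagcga
The capitals mark the 3 blocks. The HSPD1 match overlaps a second one on the same bases, and the DNAJA1 match lies just after the start of transcription. The shorter CCAAT box was in 34.6% of all promoters, and all 11 ER chaperones with a promoter entry held it. A match is a description of letters in this window and not evidence that a factor binds there.

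The members of the ER were mostly lower after depletion, and those of the cytosol and the mitochondria had medians near 0. Of the 16 ER members, 13 were lower and 3 higher in OFD1-depleted cells, with a median log2 fold change of -0.28. Of the 20 cytosolic members, 6 were lower and 14 higher (median 0.08), and of the 6 mitochondrial members 2 were lower and 4 higher (median 0.06). Of all 12025 genes tested, 6460 were lower and 5565 higher, with a median of -0.03. Scaling every sample to the same total moved that median to -0.18, and the medians of the cytosol and the mitochondria then turned negative (-0.06 and -0.09). Relative to the median of all genes, the ER lay at -0.25, the cytosol at 0.11 and the mitochondria at 0.09. Over the 20 alternative settings the relative median ranged from -0.39 to -0.21 for the ER, from -0.03 to 0.16 for the cytosol and from 0 to 0.13 for the mitochondria. These medians are descriptions of chosen lists and carry no test.

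At an adjusted p under 0.05, 5 members fell (PDIA4, HYOU1, EDEM1, SEL1L and DNAJB1) and 2 rose (HERPUD1 and CRYAB). That is 11.9% of the 42 lower and 4.76% higher, against a background of 11.9% lower and 5.07% higher, or 17% in all, among the genes tested. The members as a whole were therefore called at about the background share. Of the 5 that fell, 4 were ER members, or 25% of the 16, and 1 was cytosolic, or 5% of the 20. No mitochondrial member and no TRiC subunit passed the test in limma at this threshold, and none had an unadjusted p under 0.05. The share of calls that were lower depended on the scaling, being 70.1% here, 88.1% with equal totals and 54.5% after quantile normalization.

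The plot of values by sample shows these groups. The values are ratios to the control mean, so the controls lie on both sides of it by construction. Most ER rows were lower in each OFD1-depleted sample. The exceptions were DNAJB9 and HERPUD1, higher in every OFD1-depleted sample, and XBP1, DNAJC3 and SDF2L1, higher in some of them.

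**Figure D1:**
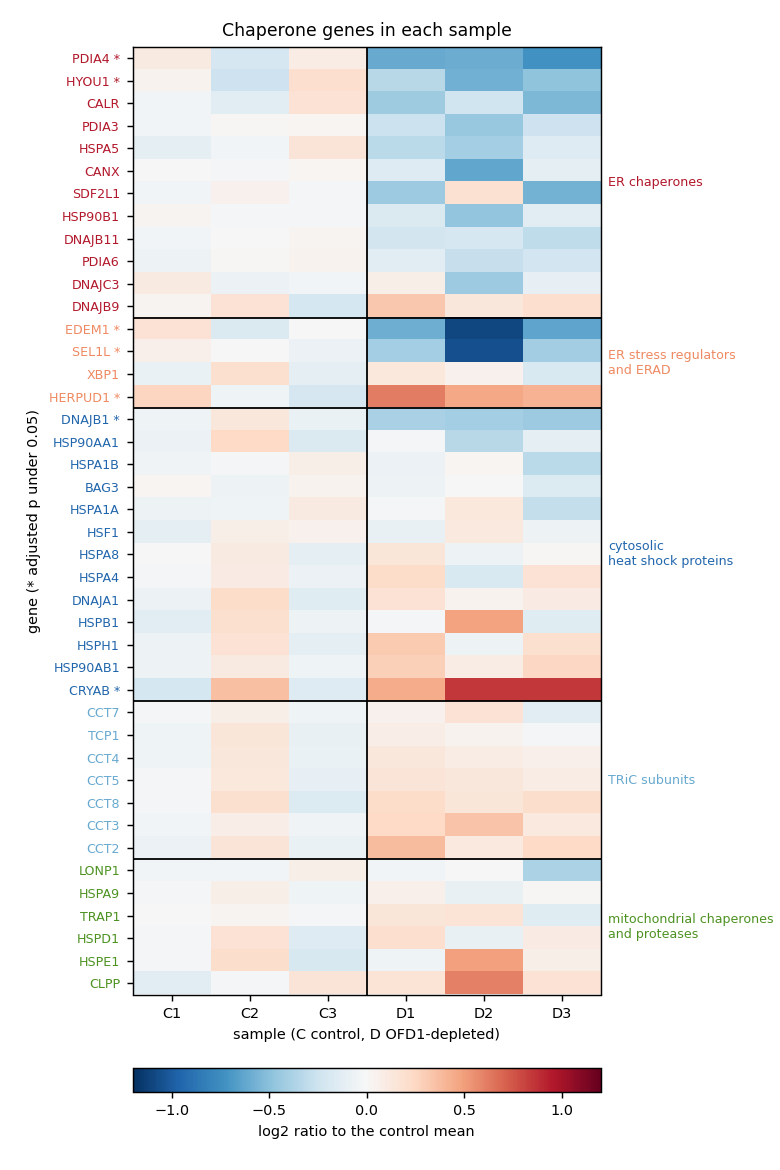
The heat map gives the log2 ratio to the control mean on log2(FPKM + 0.1) for the 42 members (rows, in 5 lists) in the 3 control (C) and 3 OFD1-depleted (D) samples (columns), with an asterisk for adjusted p under 0.05. Most ER rows are blue in D1 to D3, TRiC rows are pale, and EDEM1 and SEL1L reach -1.10 and -1.05 in D2.

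By sample, the median log2 difference of the ER members from the control mean, minus that over all genes, was -0.28, -0.34 and -0.16 in OFD1-depleted replicates 1, 2 and 3. The same quantity was 0.03, -0.06 and 0.03 in the controls. The 2 groups did not overlap for the ER, and the 3 OFD1-depleted samples lay on the same side. For the cytosol it was 0.10, 0.18 and 0.12 in the OFD1-depleted samples and -0.04, 0.09 and -0.06 in the controls, so that control replicate 2 came close to the OFD1-depleted samples. For the mitochondria the OFD1-depleted values were 0.06, 0.16 and 0.12 and the control values were 0, 0.01 and -0.02. In both of these compartments the groups did not overlap either, with the OFD1-depleted samples higher. Non-overlap was therefore not particular to the ER.

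**Figure D2:**
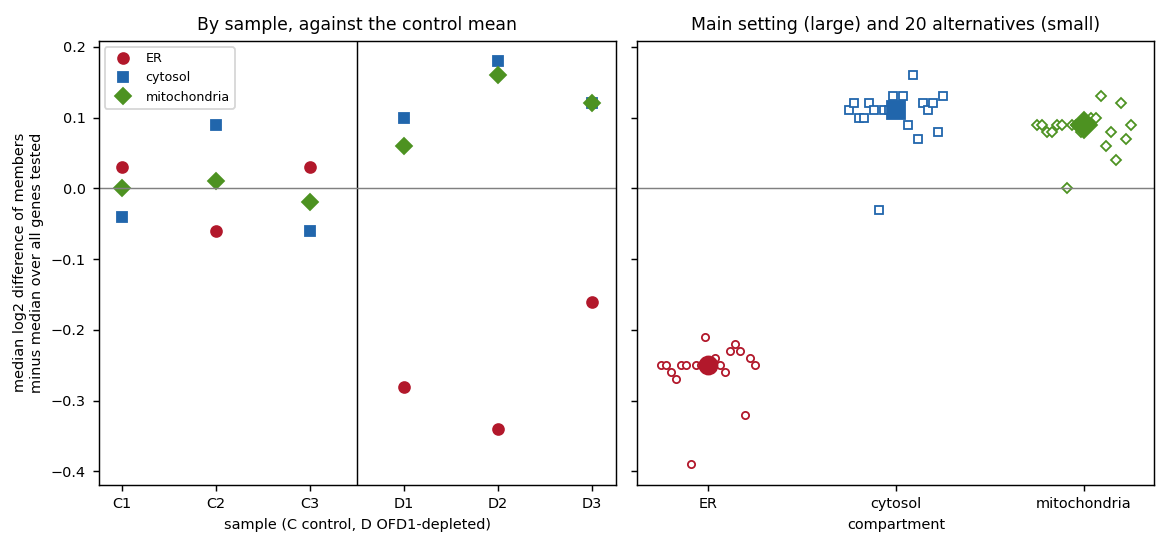
Left, the median log2 difference of each compartment's members from the control mean, minus the median over all genes tested, in each sample (C control, D OFD1-depleted). Right, the same for the log2 fold change in the main setting (large symbols) and 20 alternatives (small symbols); the ER lies at or below -0.21 in all of them, the cytosol between -0.03 and 0.16.

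Summed levels gave the same order. The 16 ER members together held 1730, 1686 and 1848 FPKM in the control samples and 1462, 1385 and 1425 FPKM in the OFD1-depleted samples. The groups did not overlap, and the OFD1-depleted mean was 81.1% of the control mean. The 20 cytosolic members held 2714, 3101 and 2654 FPKM against 3067, 2988 and 2864 FPKM, with overlap and a mean at 105% of control. Total FPKM over all genes was also higher in the OFD1-depleted samples, 433262 to 493510 against 408302 to 414547 in the controls. Both percentages of control therefore depend on the scaling. The ratio of the ER sum to the cytosolic sum within a sample does not depend on how that sample was scaled. The ER sum was 63.7%, 54.4% and 69.7% of the cytosolic sum in the controls and 47.7%, 46.3% and 49.8% in the OFD1-depleted samples, so that every OFD1-depleted sample was below every control. These sums are led by a few abundant genes, mainly CALR, HSP90B1, HSPA8 and HSP90AB1.

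Among the 12 ER chaperones, 11 were lower, 2 passed the test, and in 9 the groups did not overlap, all 9 lower. The 2 that passed are 16.7% of the list, against 11.9% of all genes tested that fell. Over all genes tested the groups did not overlap in 36.1%, lower in 22.3% and higher in 13.8%. PDIA4 (chr7:149003062-149028662, minus strand, GRCh38), a protein disulfide isomerase that forms and rearranges disulfide bonds, showed the largest difference in the list. Its FPKM was 53.0, 42.7 and 52.4 in the controls and 32.2, 32.4 and 29.6 in the OFD1-depleted samples. The 3 OFD1-depleted samples were close to each other and all below the lowest control. PDIA4 fell from 49.4 ± 5.75 to 31.4 ± 1.58 FPKM (SD, n = 3 each), or 63.6% of control, a log2 fold change of -0.65 (SE 0.131, adjusted p = 0.00646 in limma), and it passed the test in 19 of 19 alternatives.

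HYOU1 (chr11:119044188-119057227, minus strand), an ER relative of HSP70 that exchanges nucleotide on BiP, was at 44.3, 36.3 and 49.7 FPKM in the controls and 34.2, 28.8 and 30.7 FPKM in the OFD1-depleted samples. Control replicate 2 lay nearest to the OFD1-depleted samples, without overlap. HYOU1 fell by 0.47 on the log2 scale (SE 0.145, adjusted p = 0.0479 in limma). This call was close to the threshold and passed in 9 of 19 alternatives, with an adjusted p of 0.0652 without OFD1-depleted replicate 2.

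CALR (chr19:12938578-12944489, plus strand), the luminal lectin calreticulin, was the most abundant ER member. It was at 546, 508 and 631 FPKM in the controls and 416, 474 and 384 FPKM in the OFD1-depleted samples. The groups did not overlap, and OFD1-depleted replicate 2 came closest to the controls. The log2 fold change was -0.40 (95% interval -0.73 to -0.08, adjusted p = 0.0875 in limma). CALR did not pass the test here and passed it in 7 of 19 alternatives, among them the one without OFD1-depleted replicate 2. Its membrane-bound partner CANX (calnexin) was at 161 ± 2.54 FPKM in the controls and 133 ± 24.8 FPKM in the OFD1-depleted samples, a log2 fold change of -0.29 (adjusted p = 0.221, limma), with the lowest value, 105 FPKM, in replicate 2. Without that replicate CANX was at -0.13 (adjusted p = 0.343).

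HSPA5 encodes BiP, the ER HSP70, the usual readout of the unfolded protein response, and for that reason its samples are given although it did not pass the test. It was at 162, 171 and 195 FPKM in the controls and 140, 132 and 158 FPKM in the OFD1-depleted samples. The highest OFD1-depleted value was just below the lowest control value. Its log2 fold change was -0.30 (95% interval -0.59 to 0.00, adjusted p = 0.162 in limma), and it passed the test in 1 of 19 alternatives, scaling to equal totals. HSP90B1, the ER HSP90 known as GRP94, went from 305 ± 6.12 to 257 ± 32.2 FPKM (log2 fold change -0.26, adjusted p = 0.235 in limma), and was at -0.15 without replicate 2.

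The remaining disulfide isomerases PDIA3 and PDIA6 had log2 fold changes of -0.32 and -0.21. Neither passed the test, and in both the groups did not overlap. PDIA3 has pseudogene copies listed with a summed mean of 9.22 FPKM, against 134 FPKM for the gene in the controls, so a part of its reads may be placed uncertainly. The BiP co-chaperones DNAJB11, SDF2L1 and DNAJC3 had log2 fold changes of -0.24, -0.27 and -0.15. SDF2L1 was lower in OFD1-depleted replicates 1 and 3 (-0.43 and -0.56) and higher in replicate 2 (0.19), and it is among the shortest transcripts of the set, at 825 bases. Without that replicate SDF2L1 was at -0.50 and passed the test (adjusted p = 0.00866), and DNAJC3 was at -0.01. The co-chaperone DNAJB9, an IRE1 target, was the 1 ER chaperone with a positive value, 0.22 (adjusted p = 0.366, limma), with overlapping groups.

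The 6 carriers of the ER stress response element, HSPA5, HSP90B1, CALR, CANX, PDIA6 and XBP1, had log2 fold changes from -0.40 to 0, and none passed the test. The groups did not overlap in 5 of them, all lower, against 22.3% of all genes tested. The same held for 11 of the 16 ER members, so it was not particular to the carriers. The members with the lowest values, PDIA4, HYOU1, EDEM1 and SEL1L, had no match to the element in the window searched.

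Among the 4 ER stress regulators and ERAD genes, EDEM1 and SEL1L fell, HERPUD1 rose, and XBP1 did not pass the test. All 4 are targets of the unfolded protein response, and EDEM1, SEL1L and HERPUD1 take part in ERAD, which draws misfolded proteins out of the ER for degradation.

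EDEM1 (chr3:5187646-5219958, plus strand), a mannosidase-like protein that marks misfolded glycoproteins, was at 11.5, 8.99 and 10.2 FPKM in the controls and 6.77, 4.71 and 6.51 FPKM in the OFD1-depleted samples. Every OFD1-depleted sample was below every control, and replicate 2 was the lowest. EDEM1 fell to 58.6% of control, a log2 fold change of -0.77 (SE 0.171, adjusted p = 0.0102 in limma), and to -0.61 without replicate 2 (adjusted p = 0.0115). It passed in 17 of 19 alternatives, the exceptions being no filter on low values and the fit without control replicate 1. It is a long transcript of 6113 bases.

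SEL1L (chr14:81471547-81533853, minus strand), the adaptor of the ERAD ubiquitin ligase, was at 15.8, 15.2 and 14.4 FPKM in the controls and 11.4, 7.24 and 11.3 FPKM in the OFD1-depleted samples. Replicate 2 was again far below the other OFD1-depleted samples, at a log2 ratio of -1.05 against -0.41 and -0.42. SEL1L fell by 0.63 on the log2 scale (SE 0.177, adjusted p = 0.0331 in limma). Without replicate 2 the fold change was -0.41 and still passed the test (adjusted p = 0.0216), and with the length trend taken out of each sample it was -0.51 (adjusted p = 0.0176). It passed in 13 of 19 alternatives and failed, among others, without each of the 3 controls. At 7919 bases it is the longest transcript among the members.

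HERPUD1 (chr16:56932142-56944864, plus strand), a membrane protein that recruits factors to the ERAD complex, was at 27.3, 22.0 and 19.9 FPKM in the controls and 35.1, 31.6 and 30.6 FPKM in the OFD1-depleted samples. All OFD1-depleted samples were above the highest control. HERPUD1 rose to 141% of control, a log2 fold change of 0.50 (SE 0.144, adjusted p = 0.0355 in limma), and passed the test in 11 of 19 alternatives. It did so in 2 of the 6 that leave out a sample.

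XBP1 (chr22:28794555-28800597, minus strand), the transcription factor made active by IRE1 splicing, was the most abundant of the 4, at 53.0, 64.0 and 51.7 FPKM in the controls and 61.2, 58.1 and 49.4 FPKM in the OFD1-depleted samples. The ranges overlapped, and the log2 fold change was 0.00 with a 95% interval of -0.30 to 0.31 (adjusted p = 0.998, limma). Gene-level FPKM does not separate spliced from unspliced XBP1. The log2 ratio of XBP1 to HSPA5 within a sample was -1.65 in the controls and -1.35 in the OFD1-depleted samples on average, and the groups overlapped (exact permutation p = 0.3, adjusted 0.4 over 4 gene pairs).

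**Figure D3:**
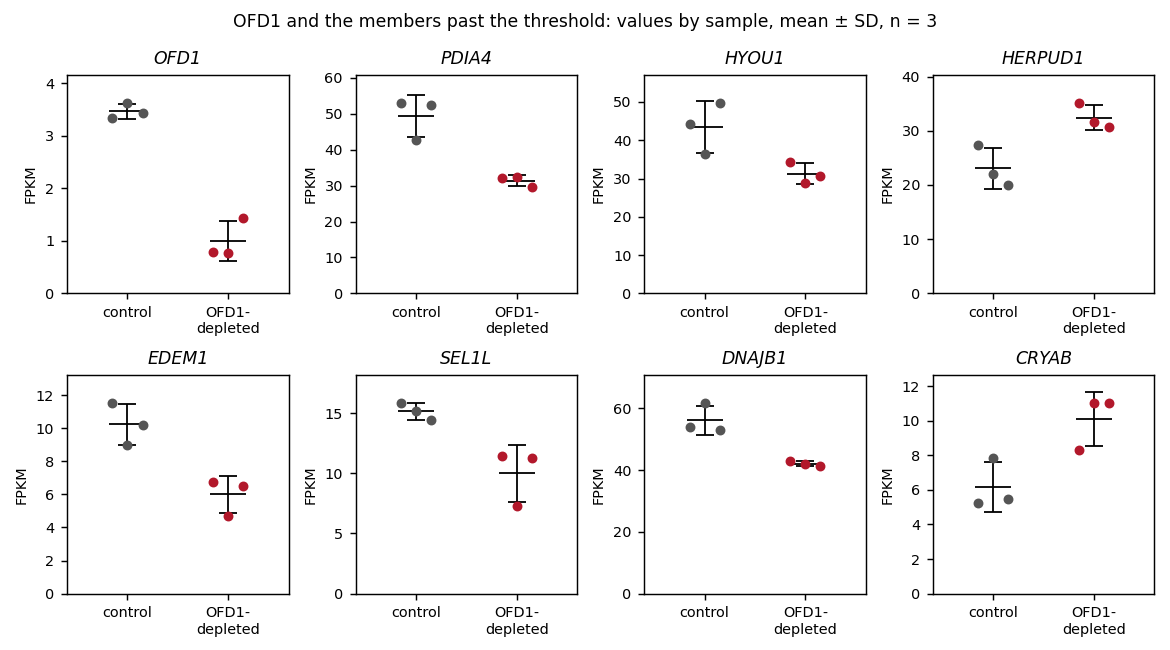
FPKM of OFD1 and of the 7 members past the threshold in each control and OFD1-depleted sample, with the mean and SD of 3 samples; each axis starts at 0. The 2 groups do not overlap in any panel, and HERPUD1 and CRYAB are the 2 that are higher after depletion.

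The 13 cytosolic heat shock proteins and regulators were split, with 6 lower and 7 higher and a median of 0.03. In 11 of them the groups overlapped and the test was not passed. The 1 that fell and the 1 that rose are each 7.69% of the list, against 11.9% and 5.07% of all genes tested. DNAJB1 (chr19:14514769-14560391, minus strand), the main J-domain partner of HSP70 in the cytosol and a target of HSF1, was at 54.0, 61.6 and 52.9 FPKM in the controls and 42.8, 42.1 and 41.4 FPKM in the OFD1-depleted samples. The OFD1-depleted values lay close together and below every control. DNAJB1 fell from 56.2 ± 4.75 to 42.1 ± 0.706 FPKM, a log2 fold change of -0.41 (SE 0.121, adjusted p = 0.0382 in limma), and passed the test in 12 of 19 alternatives. The gene overlaps TECR on the opposite strand, and the strand setting of the counting is not given in the sources used here, so reads of the 2 genes may not be fully separated. Other members also overlap a gene of at least 1 FPKM on the opposite strand. They are HSP90B1, DNAJB11, HSP90AA1, HSF1, TCP1, HSPD1, HSPE1, TRAP1 and LONP1.

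CRYAB (chr11:111908564-111923722, minus strand), the small heat shock protein αB-crystallin, was at 5.24, 7.85 and 5.46 FPKM in the controls and 8.31, 11.0 and 11.0 FPKM in the OFD1-depleted samples. OFD1-depleted replicate 1 was only just above control replicate 2, and the other 2 were well above. CRYAB rose to 163% of control, a log2 fold change of 0.71 (SE 0.185, adjusted p = 0.0229 in limma), the largest rise among the members. It is a short transcript of 774 bases, and without replicate 2 the fold change was 0.65 (adjusted p = 0.0457). It passed in 14 of 19 alternatives and failed with no filter, with equal totals, and without control replicate 1, control replicate 3 or OFD1-depleted replicate 3. The other small heat shock protein, HSPB1, had a log2 fold change of 0.11 (adjusted p = 0.737) and a wide spread, 430 ± 104 FPKM after depletion, with the highest value, 548 FPKM, in replicate 2. Without that replicate HSPB1 was at -0.08.

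HSPA8 (chr11:123057489-123063230, minus strand), the constitutive cytosolic HSP70, was the most abundant of the cytosolic heat shock proteins. It was at 553, 596 and 513 FPKM in the controls and 610, 529 and 560 FPKM in the OFD1-depleted samples. The ranges overlapped, and the log2 fold change was 0.03 with a 95% interval of -0.27 to 0.34. The stress-induced copies HSPA1A and HSPA1B had log2 fold changes of -0.06 and -0.12, between 23.4 and 34.4 FPKM in all samples, and were at -0.16 and -0.20 without replicate 2. Their coding sequences are nearly identical, so the division of reads between them is uncertain, and the log2 ratio between them differed by 0.06 between the groups (exact permutation p = 0.2, adjusted 0.4 over 4 gene pairs).

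The HSP70 nucleotide exchange factors HSPA4, HSPH1 and BAG3 had log2 fold changes of 0.07, 0.15 and -0.07, and the co-chaperone DNAJA1 0.10. Without replicate 2 HSPA4 was at 0.20, HSPH1 at 0.25 and BAG3 at -0.11, and none passed the test. HSF1, the regulator itself, was at 28.2 ± 1.96 FPKM in the controls and 28.0 ± 2.25 FPKM after depletion, a log2 fold change of -0.01 (95% interval -0.28 to 0.27). The 5 carriers of the heat shock element ranged from -0.15 to 0.21, and none passed the test or separated the groups.

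Neither of the 2 cytosolic HSP90 genes passed the test. HSP90AA1, the stress-inducible form, had a log2 fold change of -0.15 (-0.06 without replicate 2), and HSP90AB1, the constitutive form, of 0.21. The log2 ratio of HSP90AA1 to HSP90AB1, which does not depend on sample scaling, was -0.23, -0.10 and -0.36 in the controls and -0.53, -0.65 and -0.59 in the OFD1-depleted samples. The groups did not overlap. The difference of -0.36 had an exact permutation p = 0.1, the smallest possible with 3 against 3, and 0.4 after adjustment over 4 gene pairs. The transcripts have 3228 and 2555 bases, and the difference was -0.33 without replicate 2.

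**Figure D4:**
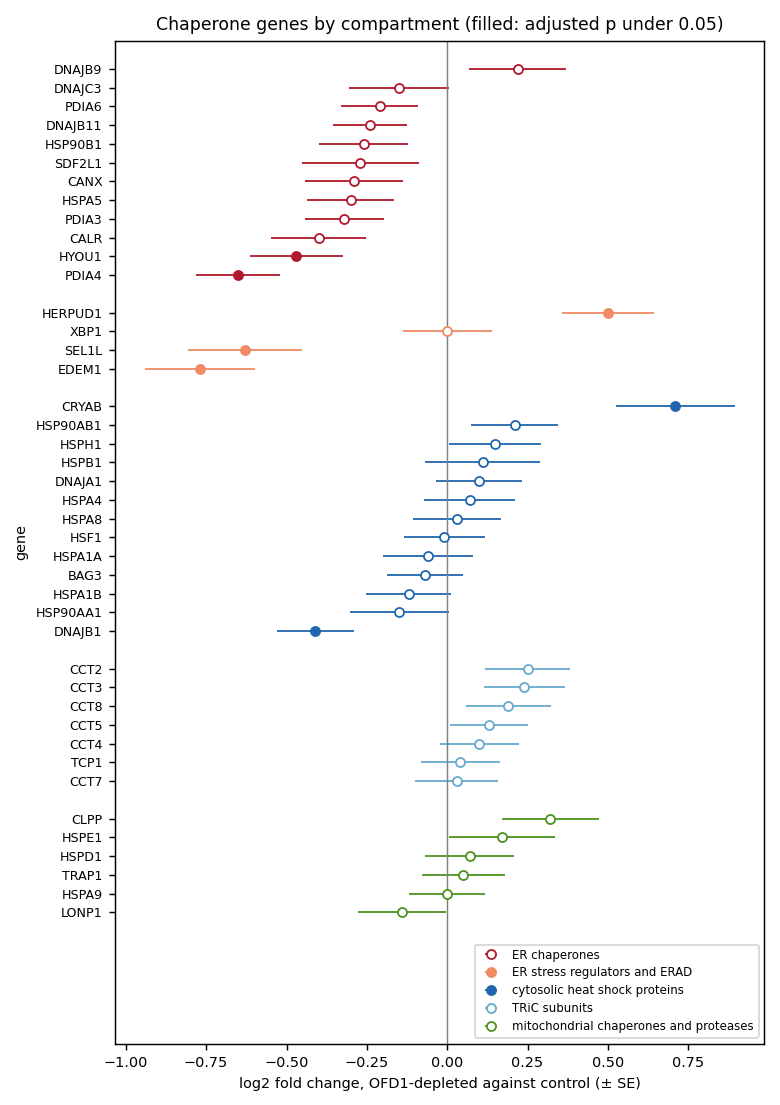
Log2 fold change of OFD1-depleted against control cells with its SE for the 42 members, grouped by list; filled symbols have an adjusted p under 0.05. The ER chaperones lie left of 0 except DNAJB9, and the 7 TRiC subunits lie right of 0 with no filled symbol.

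All 7 TRiC subunits tested as members were higher, with log2 fold changes of 0.03 to 0.25 and a median of 0.13, and none passed the test. The eighth subunit, CCT6A, which is not a member, was at 0.10 (adjusted p = 0.656, limma). Scaling to equal totals lowered every value, and TCP1, CCT4, CCT5 and CCT7 then turned negative. CCT7 was also at -0.04 without OFD1-depleted replicate 2 and at -0.03 after quantile normalization. The subunits assemble into a double ring. CCT2 (chr12:69585426-69601570, plus strand) had the largest value, at 109, 127 and 108 FPKM in the controls and 149, 124 and 135 FPKM in the OFD1-depleted samples. Control replicate 2 lay above OFD1-depleted replicate 2, and the fold change of 0.25 had a 95% interval of -0.04 to 0.54. CCT3 (chr1:156308968-156367873, minus strand), the most abundant, was at 148, 160 and 147 FPKM in the controls and 179, 192 and 164 FPKM after depletion. It was the 1 subunit whose groups did not overlap, at a log2 fold change of 0.24 (adjusted p = 0.234, limma). CCT8, CCT5, CCT4, TCP1 and CCT7 followed at 0.19, 0.13, 0.10, 0.04 and 0.03.

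The 6 mitochondrial members differed little and none passed the test. HSPD1 (chr2:197486584-197516737, minus strand), the chaperonin HSP60, was the most abundant at 122, 139 and 111 FPKM in the controls and 142, 116 and 132 FPKM in the OFD1-depleted samples. The ranges overlapped, with a log2 fold change of 0.07 (95% interval -0.24 to 0.37), or 0.15 without replicate 2. Its co-chaperonin HSPE1, annotated within the interval of HSPD1 on the opposite strand, was at 0.17, or 0.01 without replicate 2. Reads of these genes may not be fully separated. The log2 ratio of HSPD1 to HSPE1 was 0.89 to 0.96 in the controls, 1.19 and 0.95 in OFD1-depleted replicates 1 and 3 and 0.34 in replicate 2, and the mean difference of -0.1 had an exact permutation p = 0.9 and was 0.14 without replicate 2. HSPE1 has a transcript of 557 bases against 2245 for HSPD1, and 27 and 18 annotated copies share their names.

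CLPP (chr19:6361531-6370242, plus strand), the peptidase of the matrix ClpXP protease, had the largest mitochondrial value. It was at 30.2, 33.0 and 37.0 FPKM in the controls and 37.4, 50.6 and 37.6 FPKM in the OFD1-depleted samples. The groups just failed to overlap, and the log2 fold change was 0.32 (95% interval -0.02 to 0.65, adjusted p = 0.185 in limma). Without replicate 2, the highest sample, it was 0.17 (adjusted p = 0.298). Its partner CLPX, which unfolds substrates for it and is not a member, was at -0.29 (adjusted p = 0.183). The HSP70 of the matrix, HSPA9, was at 0.00, the HSP90 TRAP1 at 0.05 and the protease LONP1 at -0.14.

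The plot against transcript length shows where replicate 2 enters. Leaving it out, 8 members passed the test in place of 7, with 5 ER members lower in place of 4. HYOU1 no longer passed, and CALR and SDF2L1 passed. Leaving out another sample lowered the number of members called. It was 2 without control replicate 1, 4 without control replicate 2, 2 without control replicate 3, 4 without OFD1-depleted replicate 1 and 3 without OFD1-depleted replicate 3, and the ER members lower were then 1, 3, 2, 3 and 3.

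Other genes of the same pathways, from lists that exclude the members, were read from the same fit. Of the 108 tested, 9 fell (8.33%) and 3 rose (2.78%), against background shares of 11.9% and 5.07%, with a median of -0.06. ATF6, the membrane-bound sensor that activates BiP and its relatives, had the smallest p-value. It fell from 12.7 ± 1.18 to 5.16 ± 0.543 FPKM, a log2 fold change of -1.29 (adjusted p = 0.000157, limma). The PERK gene EIF2AK3 fell from 4.90 ± 0.204 to 2.82 ± 0.303 FPKM, by 0.78 on the log2 scale (adjusted p = 0.00675, limma). The IRE1 gene ERN1 was at 0.672 ± 0.0346 FPKM in the controls and 0.640 ± 0.198 FPKM after depletion, too low to enter the test. ATF4, the factor translated after PERK acts, rose from 161 ± 7.28 to 221 ± 16.2 FPKM (log2 fold change 0.45, adjusted p = 0.031 in limma) and passed in 13 of 19 alternatives, while its target DDIT3 (CHOP) was at 0.27 and did not pass (adjusted p = 0.231). Of the 11 sensors and effectors of the unfolded protein response tested, 6 were lower and 5 higher. The 2 that fell are 18.2% of the list and the 1 that rose 9.09%, against 11.9% and 5.07% of all genes tested.

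Among 21 further ER folding factors tested, 16 were lower (as were 6460 of all 12025 genes), with a median of -0.32. The 2 that fell are 9.52% of the list, below the 11.9% of all genes tested. The oxidase ERO1A, which supplies oxidising power to the disulfide isomerases, fell by 0.90 on the log2 scale (adjusted p = 0.00182, limma), and the isomerase TXNDC5 fell by 0.75 (adjusted p = 0.00201, limma). P4HB, the founding disulfide isomerase and an abundant one at 338 ± 34.8 FPKM in the controls, was at -0.43 and just missed the threshold (adjusted p = 0.0514, limma), with groups that did not overlap. Of 16 further ERAD components 1 fell, the lectin ERLEC1, from 35.0 ± 2.67 to 18.1 ± 0.295 FPKM (log2 fold change -0.95, adjusted p = 0.000364 in limma). That is 6.25% of the list, against 11.9% of all genes tested that fell.

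In the cytosol, 31 further heat shock proteins and co-chaperones were tested, of which 4 fell and 1 rose, with a median of -0.04. These are 12.9% and 3.23% of the list, against 11.9% and 5.07% of all genes tested. The HSP70 exchange factor BAG5 fell by 1.02 on the log2 scale (adjusted p = 0.00125, limma) and BAG2 fell by 0.74 (adjusted p = 0.017, limma; 14 of 18 alternatives passed). The J-domain protein DNAJB4, a paralogue of DNAJB1, rose by 0.60 on the log2 scale (adjusted p = 0.0188, limma), and passed in 13 of 19 alternatives. Of 11 further TRiC and prefoldin genes none passed the limma test. Of 18 further mitochondrial genes, 14 were higher (as were 5565 of all 12025 genes) and 1 rose, or 5.56% against 5.07% of all genes. It was ATF5, a transcription factor tied to mitochondrial stress (log2 fold change 0.46, adjusted p = 0.0342 in limma), which passed in 12 of 19 alternatives.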

How the data were processed

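RNA-seq of 6 samples was analysed, 3 per group, grouped by the labels. Per the labels and the study's methods, the authors prepared directional libraries, sequenced 150 bp paired-end reads, aligned them with HISAT2 (version 2.0.5) to GRCh38 (Ensembl version 94) and deposited FPKM per gene from StringTie, whose version is not given in the sources used here. The table holds no read counts. Most low values did not fall on whole multiples (23.2% to 25.7% of them within 0.05), and the share by chance was not computed. Depth is therefore not known. Total FPKM per sample was 408302 to 414547 in the controls and 433262 to 493510 in the OFD1-depleted samples. One labelled extraction protocol describes retinas, which does not match the cell line.

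limma (version 3.58.1, R 4.3.3) with a variance trend was fitted to log2(FPKM + 0.1) for 12025 genes, those averaging 1 FPKM or more. The tests were two-sided, and adjusted p-values are Benjamini-Hochberg over all genes tested. Fold changes are on that scale and understate the change of low genes. Gene pairs were compared by exact two-sided permutation of the log2 ratio. All 42 members are named. Values in every sample were given for members past the threshold and for the most abundant and the most changed member of each list, and of the further lists up to 2 genes in each direction with the smallest p, plus DDIT3, ATF4, P4HB, CCT6A and CLPX. HSPA5, the HSP90 pair and ERN1 were given beyond that rule. The members and lists were chosen with earlier results of these data known. Transcript lengths are from GENCODE 44. Protein sequences were not analysed here. Alternatives covered the pseudocount, filter, scaling, limma settings, replicate block, protein-coding genes and left-out samples, and, chosen after seeing the data, the length trend taken out of each sample and HSPA1A and HSPA1B summed; the last applies to single genes only for HSPA1A, so other members have 19.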

Additional observations from a re-analysis of the deposited data

How the results depend on the processing

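OFD1 kept its direction and call in each alternative that tested it; a minimum of 5 FPKM removed it. No called gene value reversed. Of 1063 values of named genes under 20 alternatives, 61 lost and 25 gained a call. Another 14 stayed uncalled but changed sign by more than the SE of the main fit. The remaining 963 kept their call, with the same sign or with a change of sign within that SE. In all, 50 uncalled values in 16 genes changed sign. The number of genes called, 2039, was 1083 with no filter on low values, 3956 with array weights and 1111 to 2818 with 1 sample left out. For members that fell (5) it was 1 with no filter, 9 with equal totals, 2 with no trend and 8 with array weights, and for members that rose (2) it was 0, 0, 1 and 4 under these and 1 when mitochondrially encoded genes were left out of the total. With 1 sample left out, 1 to 6 members fell and 0 to 2 rose. ER members that fell (4) numbered 1 with no filter, 8 with equal totals, 2 with no trend, 7 with array weights and 1 to 5 with 1 sample left out. They numbered 6 with the length trend taken out and 3 without mitochondrially encoded genes in the total. Relative to all genes, the ER median was -0.24 with the length trend taken out, against -0.25. The ER median (-0.28) was -0.43 with equal totals. The cytosolic median (0.08) was 0.14 with median-of-ratios scaling, -0.06 with equal totals, 0.02 after quantile normalization and 0.02 without mitochondrially encoded genes in the total, and 0.03 to 0.14 with 1 sample left out. The mitochondrial median (0.06) was 0.11, -0.09 and 0.00 under median-of-ratios, equal totals and no mitochondrially encoded genes in the total, and 0.00 to 0.11 with 1 sample left out. Further genes that fell (9) numbered 5 with a minimum of 5 FPKM, 15 with equal totals, 18 with array weights, 14 with the length trend taken out (chosen after seeing the data) and 7 to 16 with 1 sample left out. Further genes that rose (3) numbered 0 with no filter, 0 with equal totals, 6 after quantile normalization, 10 with array weights, 5 with the length trend taken out and 0 to 8 with 1 sample left out. The cause of these differences was not tested. The deviations of same-numbered samples correlated at 0.052, 0.057 and 0.024, and those of differently numbered samples at -0.071 to 0.044. All were near 0, so this check could not decide whether a shared replicate number pairs the samples. The replicate block moved the genes called to 2296, of which 1945 were also called without it. With FPKM alone, counting error is not known, and 3 samples a group limit what can be called.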
